A study of Mus musculus with 14 samples.

Results

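The genes described here are 10 chemokines that myeloid cells make: Ccl2, Ccl7, Ccl3, Ccl4, Ccl6, Ccl9, Ccl17, Ccl22, Cxcl2 and Cxcl3. They were taken by symbol, 10 of the 55367 gene symbols in each of 2 count tables. All 10 were present in both tables, and all 10 passed the filter on low counts in both. The first table holds lineage-negative (Lin-) mouse marrow cells of wild-type genotype, that is, marrow from which cells with mature blood markers were removed, transduced with lentivirus carrying luciferase (3 libraries) or the mutant SETBP1-D868N (3 libraries). In the second, Lin- marrow cells all carried SETBP1-D868N and received the vehicle DMSO (4 libraries) or 2.5 µM PF-9363 (4 libraries) for 4 days. PF-9363 blocks histone acetyltransferases of the MYST family, which add acetyl groups to histone tails. All cultures were given the cytokines SCF, IL6 and IL3. There were no luciferase cells with PF-9363, so a response of cells without the mutant was not measured. The labels do not say whether replicates came from separate animals or cultures, and p-values then measure only the spread between these libraries, which may be technical.

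Chemokines are small secreted proteins that draw leukocytes along a gradient by binding G protein-coupled receptors on the responding cell. Most genes of the CC and CXC classes lie in clusters of tandem copies, and many are switched on in macrophages, mast cells and neutrophils by inflammatory signals that act through NF-kappaB. In marrow, Ccl2 and Ccl7 act on CCR2, which monocytes need to leave for the blood, and Cxcl2 and Cxcl3 act on CXCR2, a neutrophil receptor. Ccl3, Ccl6 and Ccl9 act on CCR1 of monocytes and macrophages, Ccl4 attracts monocytes and T cells, and Ccl17 and Ccl22 on CCR4 of T cells.

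In the GRCm38 annotation of GENCODE M21, the 10 genes form 4 groups of neighbours. Ccl2 (chr11:82035571-82037453) and Ccl7 (chr11:82045712-82047525) lie within 11955 bp on the plus strand. A further 4 genes lie in 91765 bp of the same chromosome. These are Ccl9 (chr11:83572919-83578636, minus strand), Ccl6 (chr11:83587882-83593087, minus strand), Ccl3 (chr11:83647844-83649355, minus strand) and Ccl4 (chr11:83662584-83664683, plus strand). Ccl22 (chr8:94745590-94751699) and Ccl17 (chr8:94810453-94812036) lie on the plus strand of chromosome 8. Cxcl3 (chr5:90786103-90789600) and Cxcl2 (chr5:90903871-90905938) lie 119836 bp end to end on the plus strand of chromosome 5. A gene on the opposite strand overlaps Ccl2 (Gm17268) and another overlaps Ccl6 (E230016K23Rik). Gm17268 had 0 counts in every library. E230016K23Rik had between 45 and 111 counts in experiment 1 and between 11 and 22 in experiment 2, against at least 8639 for Ccl6. Whether counting used the strand is not given in the sources used here.

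Upstream sequence was found for 7 of the 10 genes in the RefSeq promoter table (GRCm38.p6), and Ccl2, Ccl4 and Ccl7 had no entry. Sequences of 4 genes are shown because they belong to a pair that responded unequally to PF-9363 (Cxcl2 and Cxcl3) and to the pair with the highest levels (Ccl6 and Ccl9). Each runs 5′ to 3′ on the strand of its gene and ends at or just before the start of transcription, and capitals mark a match to the NF-kappaB motif, known as kappaB.
Cxcl3 (chr5:90785851-90786100, plus strand): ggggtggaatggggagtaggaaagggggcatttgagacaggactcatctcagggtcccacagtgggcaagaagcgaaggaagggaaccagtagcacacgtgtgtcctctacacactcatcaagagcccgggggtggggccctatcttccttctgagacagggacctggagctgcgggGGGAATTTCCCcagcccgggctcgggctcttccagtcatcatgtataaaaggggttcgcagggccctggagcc
Cxcl2 (chr5:90903649-90903870, plus strand, with 28 bases next to the start left out because a GENCODE transcript covers them): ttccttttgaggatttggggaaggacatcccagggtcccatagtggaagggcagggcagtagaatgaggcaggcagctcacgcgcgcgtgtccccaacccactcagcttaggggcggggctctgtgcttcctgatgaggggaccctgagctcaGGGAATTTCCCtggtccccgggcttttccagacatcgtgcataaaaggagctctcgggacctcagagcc
Ccl9 (chr11:83578637-83578886, minus strand): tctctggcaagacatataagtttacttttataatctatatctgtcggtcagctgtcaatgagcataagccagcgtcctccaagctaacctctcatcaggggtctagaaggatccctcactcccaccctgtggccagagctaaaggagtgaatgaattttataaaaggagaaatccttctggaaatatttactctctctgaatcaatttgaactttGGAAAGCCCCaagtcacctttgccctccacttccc
Ccl6 (chr11:83593088-83593337, minus strand, with no match): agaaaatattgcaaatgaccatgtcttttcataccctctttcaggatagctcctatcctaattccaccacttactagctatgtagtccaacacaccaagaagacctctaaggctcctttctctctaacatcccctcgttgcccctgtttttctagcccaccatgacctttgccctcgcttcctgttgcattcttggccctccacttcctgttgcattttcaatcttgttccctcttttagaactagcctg

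The kappaB motif, searched by name on both strands in the 250 bases upstream of each start, was found in 3 of the 7 windows (Cxcl2, Cxcl3 and Ccl9). Of 32851 windows of that length in the whole table, 3.90% held it. Cxcl2 and Cxcl3 carried the same letters, which match on both strands so that their 2 matches overlap. Counted from the RefSeq start, they lay 73 to 63 bases upstream in Cxcl3 and 97 to 87 in Cxcl2. The Cxcl2 distance includes the 28 bases left out of the printed sequence, so the 2 distances do not show a shift between the genes. The windows of these paralogs shared 158 of 201 aligned bases (78.6%), while the best local match between Ccl6 and Ccl9 spanned 17 bases. The AP-1 letters TGANTCA were found in 1 window (Ccl9), against 6.75% of all windows. GAGGAA, a PU.1 core, was found in 2 (Ccl17 and Ccl3), against 23.3%, and TATAAA in 2 (Cxcl3 and Ccl9), against 12.4%. A match describes letters and not a site in use.

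Counts are printed as CPM (each count scaled to the library total) after TMM scaling, each mean with its SD over libraries. Depth was 60147266 to 68730322 counts per library in experiment 1 and 7083731 to 10359093 in experiment 2, so 3 counts, the limit that a count of 0 allows, equal 0.0436 to 0.0499 CPM and 0.290 to 0.424 CPM. These limits cover counting error only. Setbp1 itself had 5 to 6 counts in luciferase and 20 to 24 in SETBP1-D868N libraries, but 0 to 2 with DMSO and 0 with PF-9363. Whether reads of the transgene were counted on that row is not given in the sources used here, so it does not check the labels of the second experiment. Of the labelled cell type, the 10 stem and progenitor markers summed to between 802.8 and 877.2 CPM in libraries of experiment 1 and, in experiment 2, to between 178.3 and 207.8 CPM with DMSO and between 518.6 and 616.7 CPM with PF-9363. Of that rise Gata2 (56.1 to 296.8 CPM) and Kit (69.8 to 191 CPM), which are also mast cell markers, made up most. Markers of mature myeloid cells were also read in every library, and their values stand beside the results below. In bulk RNA, fewer cells of a type and less RNA per cell cannot be told apart.

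Per kilobase of transcript, Ccl6 and then Ccl9 had the highest levels of the 10 genes in all 4 groups. Ccl6 averaged 1597 CPM per kb with luciferase, 1437 with SETBP1-D868N, 647.9 with DMSO and 3325 with PF-9363. Ccl9 averaged 174.6, 157.2, 159.5 and 514.6 CPM per kb in the same order of groups. Both encode CC chemokines that mouse myeloid cells make in the resting state. Cxcl2 was lowest in the first 3 of these groups, at 0.755, 0.908 and 0.974 CPM per kb, and Cxcl3 was lowest with PF-9363, at 3.90. The libraries of Cxcl2 (mean 6.47 CPM per kb) and Cxcl3 overlapped there, so their order in that group is not resolved. In luciferase cells the order between was Ccl3 (110.6), Ccl22 (95.85), Ccl17 (67.2), Ccl4 (40.1), Ccl2 (37.9), Ccl7 (11.03) and Cxcl3 (3.02 CPM per kb), and only Ccl4 and Ccl2 overlapped with their neighbour. With SETBP1-D868N, Ccl22 (52.1), Ccl4 (45.8), Ccl17 (41.95) and Ccl2 (33.2 CPM per kb) each overlapped with the next. With PF-9363, Ccl2 (369 CPM per kb) and Ccl7 (320.9) followed Ccl9 and overlapped with each other, while Ccl7 stood below Ccl3 in the DMSO cells at 21.6 CPM per kb.

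Summed over the 10 genes, the transcripts made up 3159 to 3329 CPM in luciferase and 2796 to 2890 CPM in SETBP1-D868N libraries. The sum was 1400 to 1650 CPM in the DMSO libraries and 6192 to 8072 CPM in the PF-9363 libraries, that is 0.152% to 0.176% and 0.580% to 0.729% of library counts. Ccl6 alone gave 60.8% to 73.6% of the summed CPM in every library, not corrected for length. The experiments differed in input RNA (500 ng against 100 ng), library preparation and depth and were scaled separately, so levels were not compared across them. Side by side, Ccl22 averaged 116 CPM in the SETBP1-D868N cells of the first experiment and 5.55 CPM in the DMSO-treated SETBP1-D868N cells of the second. Ccl9 averaged 473 and 480 CPM in the same groups, so the gap differed between genes. Its source was not tested.

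The first comparison asked how the chemokine transcripts differed when the mutant SETBP1 was present. Ccl17 and Ccl22, the ligands of CCR4, fell the most of the 10, Ccl6 and Ccl9 fell slightly, and Ccl4 and Cxcl3 rose slightly. Ccl2, Ccl7, Ccl3 and Cxcl2 did not pass the test. Thus 2 of 10 genes were called higher and 4 lower at an edgeR adjusted p under 0.05, where 47.2% of all 15794 genes tested were called, 24.5% higher and 22.7% lower. The groups did not overlap for 6 of the 10 genes, against 56.7% of all genes, so the share called was near that of the genome at large. The median log2 fold change of the 10 genes was -0.14, against 0.0043 for all genes, and none of them was called with a 2-fold rise, against 1.34% of all genes.

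**Figure D1:**
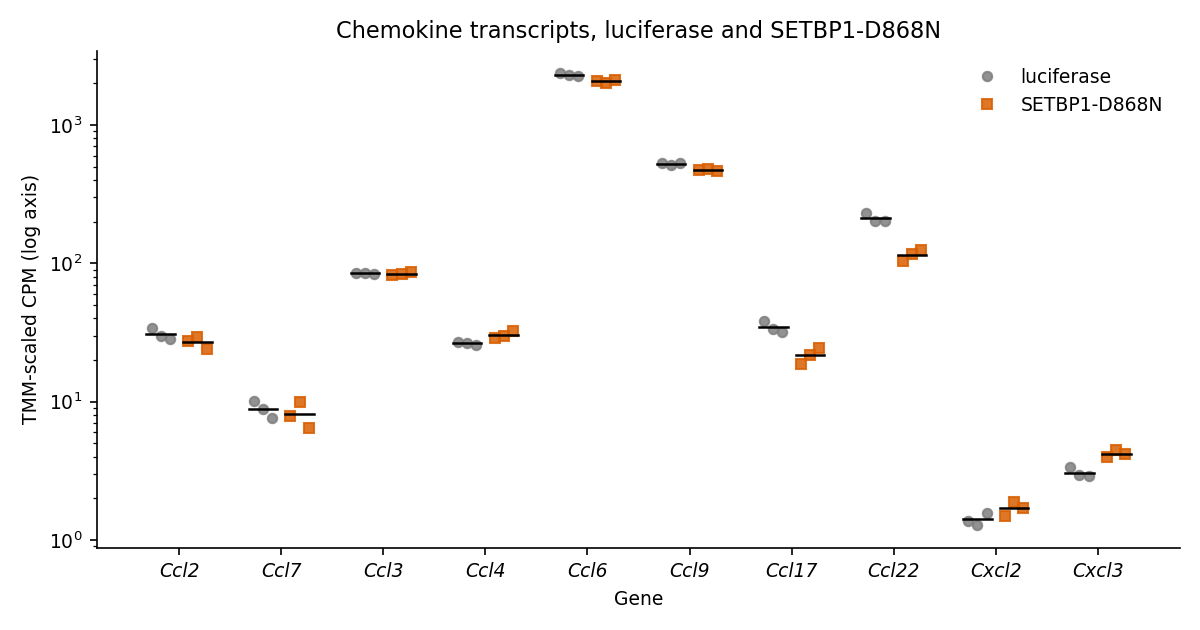
TMM-scaled CPM of the 10 chemokine genes (log axis) in 3 luciferase (grey circles) and 3 SETBP1-D868N (orange squares) libraries, with a black bar at each mean. The squares of Ccl17 and Ccl22 lie below the circles, those of Ccl4 and Cxcl3 lie above, and the groups of Ccl2, Ccl7, Ccl3 and Cxcl2 overlap.

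Ccl22, a chemokine of dendritic cells and macrophages that attracts T cells, read 231, 204 and 202 CPM with luciferase and 104.5, 117 and 125 CPM with SETBP1-D868N. Every SETBP1-D868N library lay below every luciferase library. The mean fell from 212 ± 16.1 to 116 ± 10.4 CPM (SD, n = 3 each), 1.84-fold, a change of -0.88 on the log2 scale (SE 0.0878, edgeR adjusted p = 6.68e-04). Its neighbour Ccl17, which binds the same receptor, read 38.5, 33.5 and 31.6 CPM with luciferase and 18.6, 21.6 and 24.5 CPM with SETBP1-D868N. The groups were again separate. Ccl17 fell 1.60-fold, by 0.68 on the log2 scale (SE 0.125, edgeR adjusted p = 0.00695).

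Ccl6 and Ccl9 fell by nearly the same proportion. Ccl6 read 2364, 2289 and 2247 CPM with luciferase and 2070.0, 2018 and 2118 CPM with SETBP1-D868N. The groups were separate, and Ccl6 fell by 0.15 on the log2 scale (SE 0.0273, edgeR adjusted p = 6.11e-04). Ccl9 read 534, 512.5 and 528 CPM with luciferase and 469.9, 480.5 and 467 CPM with SETBP1-D868N, also without overlap. Its log2 fold change was -0.15 (SE 0.0250, edgeR adjusted p = 3.35e-04).

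Ccl4, a macrophage inflammatory protein, read 27.0, 26.65 and 25.75 CPM with luciferase and 28.8, 29.6 and 32.2 CPM with SETBP1-D868N. All SETBP1-D868N libraries lay above, and the rise was 0.19 on the log2 scale (SE 0.0480, edgeR adjusted p = 0.00597). Its neighbour Ccl3, a ligand of CCR1, read 85.5, 84.75 and 83.9 CPM with luciferase and 81.9, 83.4 and 86.4 CPM with SETBP1-D868N. These overlapped (log2 fold change -0.014, SE 0.0298, edgeR adjusted p = 0.733), and with library size alone as the scaling the sign turned (0.035). Cxcl3, a ligand of the neutrophil receptor CXCR2, read 3.35, 2.93 and 2.915 CPM with luciferase and 3.96, 4.46 and 4.19 CPM with SETBP1-D868N. The groups were separate, and Cxcl3 rose 1.37-fold (log2 fold change 0.45, SE 0.101, edgeR adjusted p = 0.00285).

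Cxcl2, which binds the same receptor as Cxcl3, read 1.37, 1.275 and 1.57 CPM with luciferase and 1.49, 1.88 and 1.69 CPM with SETBP1-D868N (log2 fold change 0.27, SE 0.148, edgeR adjusted p = 0.160). Its groups overlapped in 1 library of each. Ccl2, the main monocyte attractant of the marrow, read 34.01, 30.0 and 28.4 CPM with luciferase and 27.55, 29.5 and 23.9 CPM with SETBP1-D868N. These ranges overlapped, with a log2 fold change of -0.19 (edgeR SE 0.0966, adjusted p = 0.151). The call of Ccl2 depended on the fit: DESeq2 gave -0.20 with an adjusted p = 0.0381. Ccl7, which shares its receptor, read 10.1, 8.77 and 7.62 CPM with luciferase and 7.80, 9.98 and 6.40 CPM with SETBP1-D868N. Its libraries of both groups were spread over much the same range (log2 fold change -0.14, SE 0.190, edgeR adjusted p = 0.608). Without SETBP1-D868N replicate 3 the value of Ccl7 was 0.0038.

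The second comparison asked how the transcripts responded when MYST acetyltransferases were inhibited in SETBP1-D868N cells. All but Cxcl3 rose, by 3.22-fold (Ccl9) to 14.8-fold (Ccl7), and Ccl2 and Ccl7 rose most. Of the 10 genes 9 were called higher and 0 lower with edgeR, where 76.0% of all 13456 genes tested were called, 36.6% higher and 39.4% lower. At an unadjusted p under 0.05, with DESeq2 and with limma-voom the count called lower was also 0. All 9 rose at least 2-fold, against 15.8% of all genes tested. The groups did not overlap for these 9 genes, against 70.3% of all genes. The median log2 fold change of the 10 was 2.41, against -0.038 over all genes.

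**Figure D2:**
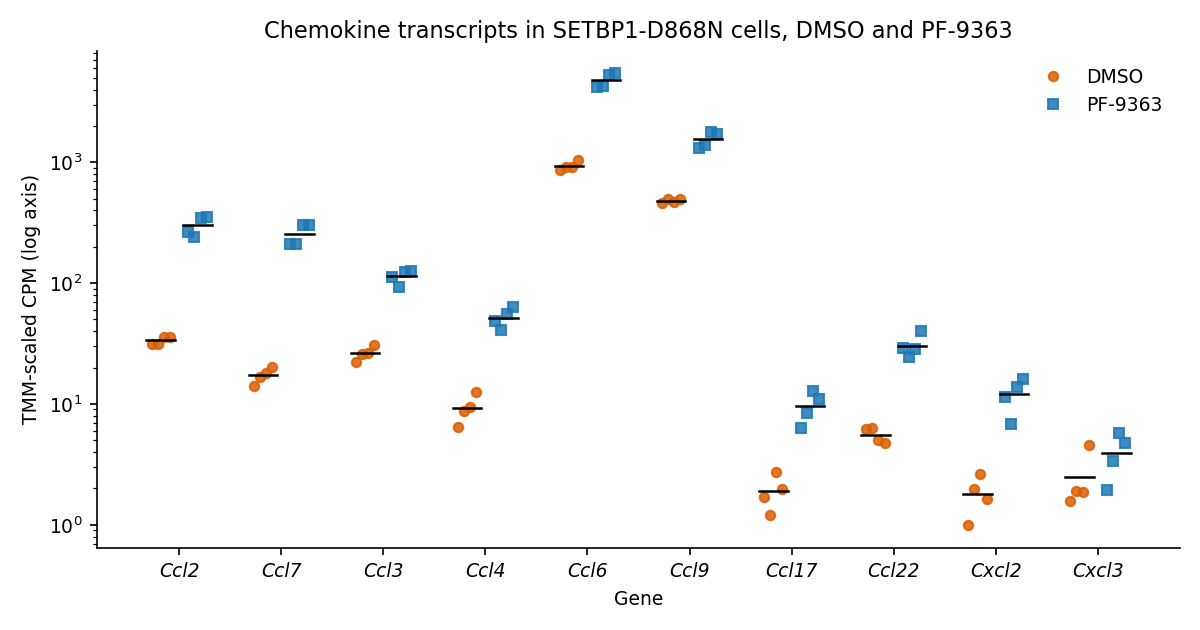
TMM-scaled CPM of the 10 chemokine genes (log axis) in SETBP1-D868N cells with DMSO (4 libraries, orange circles) or PF-9363 (4 libraries, blue squares), with a black bar at each mean. The blue squares lie above all orange circles for every gene but Cxcl3, where 1 DMSO library, at 4.54 CPM, lies among the squares.

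Ccl7 read 14.2, 16.8, 17.9 and 20.2 CPM with DMSO and 210.5, 210.6, 305 and 302 CPM with PF-9363. The lowest PF-9363 library held over 10 times the CPM of the highest DMSO library. The log2 fold change was 3.89 (edgeR SE 0.193, adjusted p = 4.13e-07), which ranked 72 from the top of the 13456 genes. Ccl2 read 31.3, 31.3, 36.15 and 35.9 CPM with DMSO and 264, 242, 344 and 349.8 CPM with PF-9363. It rose 8.89-fold, from 33.7 ± 2.72 to 300.0 ± 55.0 CPM (SD, n = 4 each), with a log2 fold change of 3.15 (edgeR SE 0.136, adjusted p = 3.11e-09). For both genes PF-9363 replicates 3 and 4 were higher than 1 and 2, as they were for 9 of the 10 genes, all but Ccl22.

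Ccl3 read 22.1, 25.8, 26.6 and 30.85 CPM with DMSO and 113, 92.3, 123 and 125 CPM with PF-9363. Its libraries were well separated, and the rise was 2.10 on the log2 scale (SE 0.103, edgeR adjusted p = 1.08e-13). Ccl4 read 6.45, 8.68, 9.37 and 12.6 CPM with DMSO and 48.8, 40.7, 55.1 and 62.9 CPM with PF-9363. It rose from a lower level by a larger factor, with a log2 fold change of 2.48 (edgeR SE 0.178, adjusted p = 1.95e-08). Both encode macrophage inflammatory proteins that recruit monocytes and T cells.

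Ccl6 read 857, 915, 916 and 1045 CPM with DMSO and 4203, 4259, 5248 and 5443 CPM with PF-9363. It had the largest rise in CPM of the 10 genes, from 933 ± 79.6 to 4788 ± 649 (SD, n = 4 each), a log2 fold change of 2.36 (edgeR SE 0.0880, adjusted p = 1.59e-15). Ccl9 read 459, 496, 471 and 492 CPM with DMSO and 1303, 1387, 1780.0 and 1717 CPM with PF-9363. Its log2 fold change of 1.69 (edgeR SE 0.0860, adjusted p = 1.14e-12) was the smallest among the genes called.

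Ccl22 read 6.15, 6.29, 5.06 and 4.72 CPM with DMSO and 29.05, 24.6, 28.3 and 39.8 CPM with PF-9363. This T cell attractant rose 5.51-fold (log2 fold change 2.46, SE 0.153, edgeR adjusted p = 3.22e-14). Ccl17 read 1.69, 1.197, 2.72 and 2.00 CPM with DMSO, which are 12 to 29 counts, and 6.28, 8.38, 12.8 and 11.1 CPM with PF-9363. Its groups were separate at these low counts, with a log2 fold change of 2.31 (edgeR SE 0.257, adjusted p = 4.98e-09).

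Cxcl2 read 0.992, 2.00, 2.62 and 1.63 CPM with DMSO (10 to 28 counts) and 11.4, 6.83, 13.7 and 16.2 CPM with PF-9363. All PF-9363 libraries were higher, and Cxcl2 rose 6.60-fold (log2 fold change 2.72, SE 0.277, edgeR adjusted p = 1.67e-08). Its paralog Cxcl3 read 1.59, 1.90, 1.87 and 4.54 CPM with DMSO and 1.96, 3.35, 5.76 and 4.77 CPM with PF-9363. These groups overlapped through DMSO replicate 4 and PF-9363 replicate 1. The log2 fold change of Cxcl3 was 0.63 (SE 0.356, edgeR adjusted p = 0.112). Without DMSO replicate 4 it was 1.11 (edgeR adjusted p = 0.00564), and without PF-9363 replicate 1 it was 0.88 (edgeR adjusted p = 0.0198).

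**Figure D3:**
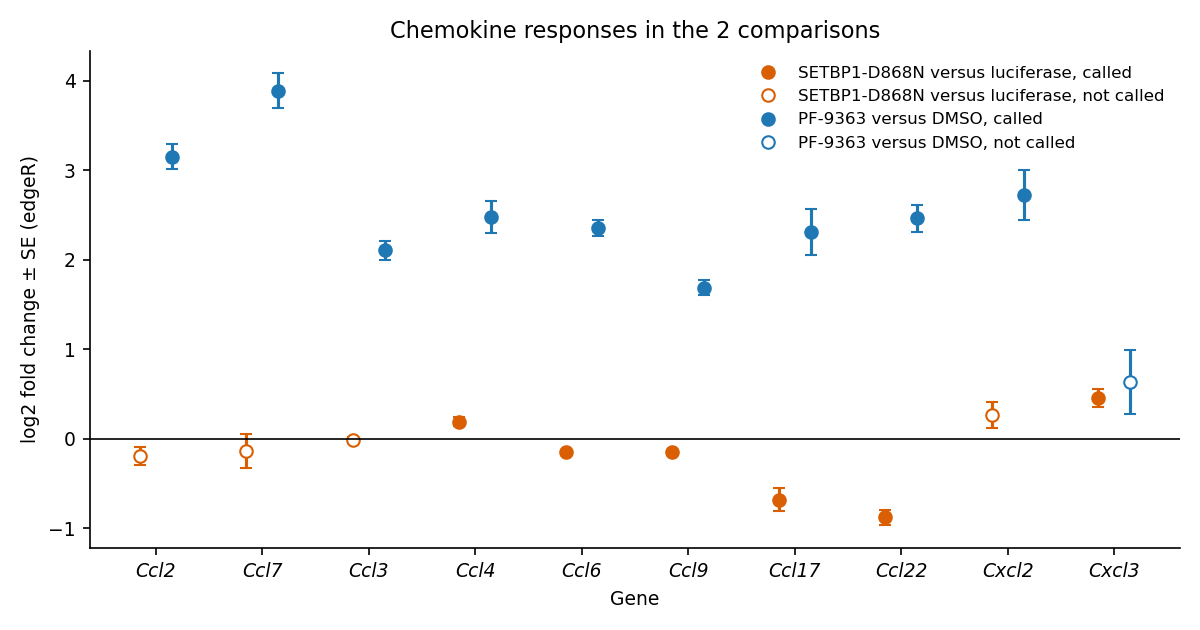
Log2 fold change of each chemokine gene from edgeR, with its standard error, for SETBP1-D868N versus luciferase (orange) and PF-9363 versus DMSO (blue). Filled points had an adjusted p under 0.05 and open points did not. The blue points of 9 genes lie between 1.69 and 3.89, while the orange points lie between -0.88 and 0.45.

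The 4 genes that were lower with SETBP1-D868N (Ccl6, Ccl9, Ccl17 and Ccl22) were all among those higher with PF-9363. Since 9 of the 10 genes were higher with PF-9363, this overlap says little about these 4. How many of all genes lower in the first comparison were higher in the second was not counted. Ccl4 was called higher in both comparisons, by 0.19 and 2.48 on the log2 scale. Cxcl3 passed the test with SETBP1-D868N at 0.45 and not with PF-9363 at 0.63, where its standard error was larger, and the difference between these values was not tested. The experiments share no libraries. Their scales differ, since the median absolute log2 fold change over all genes tested was 0.189 in the first and 0.650 in the second.

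Whether 2 related genes moved by different amounts was tested on the log2 ratio of their CPM within each library, log2((CPM + 0.5)/(CPM + 0.5)), with a two-sided exact permutation test and adjustment over the 5 pairs of a comparison. Apart from the added 0.5 CPM, which matters for genes of few CPM, a change of such a ratio does not depend on gene length. With PF-9363, 4 of the 5 ratios changed. The ratio of Ccl2 to Ccl7 was 1.12, 0.883, 0.995 and 0.813 with DMSO and 0.324, 0.201, 0.174 and 0.211 with PF-9363. Ccl7 thus gained on Ccl2, with a difference of -0.72 (SE 0.0743, exact permutation p = 0.0286, adjusted p = 0.0357). The ratio of Ccl6 to Ccl9 was 0.899, 0.883, 0.958 and 1.085 with DMSO and 1.69, 1.62, 1.56 and 1.66 with PF-9363. Ccl6 gained on Ccl9 by 0.68 (SE 0.0539, exact permutation p = 0.0286, adjusted p = 0.0357). The smallest p that 4 against 4 libraries allow is 0.0286.

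**Figure D4:**
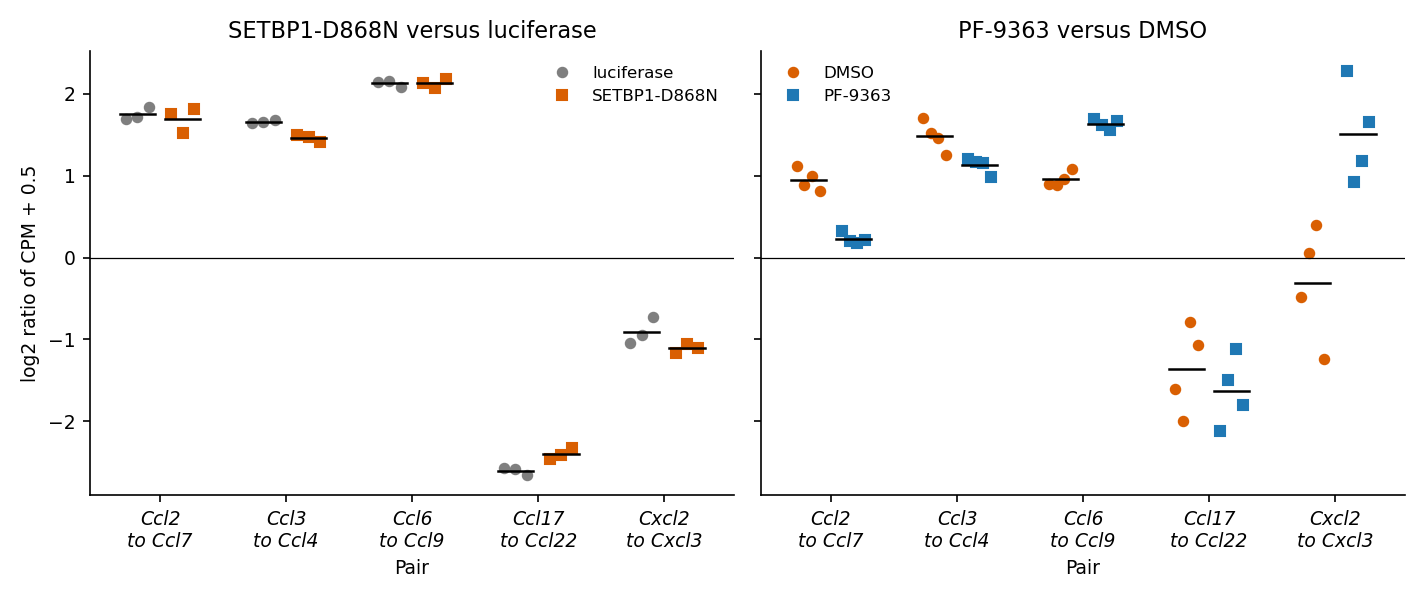
Log2 ratio of CPM + 0.5 for 5 pairs of related chemokine genes in each library, with a black bar at each mean, for 3 luciferase and 3 SETBP1-D868N libraries (left) and for 4 DMSO and 4 PF-9363 libraries (right). On the right the groups of Ccl17 to Ccl22 overlap and the other 4 pairs do not. The mean of Cxcl2 to Cxcl3 moves from -0.32 to 1.51.

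The ratio of Cxcl2 to Cxcl3 had the largest change. It was -0.48, 0.059, 0.396 and -1.24 with DMSO and 2.28, 0.929, 1.18 and 1.66 with PF-9363, a difference of 1.83 (SE 0.465, exact permutation p = 0.0286, adjusted p = 0.0357). Without DMSO replicate 4, the library high in Cxcl3, the difference was 1.52. Over the alternatives that kept all libraries, other pseudocounts among them, it ranged from 1.44 to 1.995. Ccl4 gained on Ccl3, whose ratio was 1.70, 1.52, 1.46 and 1.26 with DMSO and 1.21, 1.17, 1.155 and 0.988 with PF-9363. The difference was -0.355 (SE 0.104, exact permutation p = 0.0286, adjusted p = 0.0357), and with a pseudocount of 2 CPM it was -0.24 (adjusted p = 0.0714 by the exact test). The ratio of Ccl17 to Ccl22 ranged from -1.999 to -0.79 with DMSO and from -2.12 to -1.12 with PF-9363 and was not resolved (difference -0.27, SE 0.345, exact permutation p = 0.429, adjusted p = 0.429). Without PF-9363 replicate 1 the differences were -0.76 for Ccl2 to Ccl7, 0.66 for Ccl6 to Ccl9, 1.57 for Cxcl2 to Cxcl3 and -0.38 for Ccl3 to Ccl4. Each then had an adjusted p = 0.0714 by the exact test. Ccl3 to Ccl4 had the same adjusted p without PF-9363 replicate 2, 3 or 4 (exact test, differences of -0.37, -0.36 and -0.31). With some other library left out, also 3 against 4, the exact test gave each of these 4 ratios an adjusted p as low as 0.0357. The number of arrangements therefore does not account for the value of 0.0714.

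With SETBP1-D868N no ratio could pass, since the smallest p of 3 against 3 libraries is 0.1. The groups were separate for 3 ratios, each with an exact permutation p = 0.1 (adjusted p = 0.167). Ccl3 to Ccl4 was 1.65, 1.65 and 1.685 with luciferase and 1.49, 1.48 and 1.41 with SETBP1-D868N (difference -0.20, SE 0.0286). Ccl17 to Ccl22 was -2.57, -2.59 and -2.66 against -2.46, -2.41 and -2.33 (difference 0.21, SE 0.0475), so Ccl22 lost more than Ccl17 in these libraries. Cxcl2 to Cxcl3 was -1.04, -0.95 and -0.72 against -1.16, -1.06 and -1.10 (difference -0.20, SE 0.0991). The ratio of Ccl6 to Ccl9 differed by -0.0011 (SE 0.0388, exact permutation p = 1.0) and that of Ccl2 to Ccl7 by -0.053 (SE 0.102, exact permutation p = 0.8), and both overlapped.

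Receptors for these ligands were read in the same libraries. Counts of this and later lists stand beside the shares called over all genes tested. These were 24.5% higher and 22.7% lower with SETBP1-D868N, and 36.6% and 39.4% with PF-9363. Of 9 receptor genes, 8 were tested with SETBP1-D868N, and 1 rose and 5 fell (median -0.38). The eosinophil receptor Ccr3 rose, by 1.71 on the log2 scale, from 0.945 to 3.08 CPM. Those that fell included Cxcr1 (-0.90), Ackr1 (-0.66), Cxcr2 (-0.52) and Ccr1 (-0.25), and Ccr2 had 319.9 and 312.9 CPM (log2 fold change -0.032, edgeR adjusted p = 0.477). Ccr4, the receptor of Ccl17 and Ccl22, had 1.19 and 1.31 CPM (edgeR adjusted p = 0.577). With PF-9363, 4 of 5 tested receptors rose, among them Ccr3 (1.74), Ccr1 (1.68) and Cxcr2 (1.18 on the log2 scale). Ccr2, the receptor of the 2 ligands that rose the most, fell from 773.5 ± 44.7 to 134 ± 12.6 CPM (SD, n = 4 each), a log2 fold change of -2.53 (edgeR SE 0.0698, adjusted p = 1.27e-22). Ccr4 stayed under the filter, with 0.247 and 0.300 CPM.

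Of 26 other chemokine genes, 12 were tested with SETBP1-D868N. No call was higher and 8 fell (median -0.65), among them Ccl5 (-1.19), a T cell attractant, and Ccl8 (-1.09), a monocyte attractant. Ccl24, an eosinophil attractant of macrophages, fell from 320.1 to 207.8 CPM (log2 fold change -0.62). With edgeR at an unadjusted p under 0.05, with DESeq2 and with limma-voom the count of genes higher was 0 as well, and without the expression filter it was 1. With PF-9363, 8 were tested, and 7 rose and 1 fell (median 1.93). Ccl8 (3.67), Cxcl16 (3.51), Cxcl10 (2.65), Ccl12 (2.45) and Ccl24 (1.41) rose, and the platelet chemokine Ppbp fell by 0.82 on the log2 scale. Ccl19, Ccl20, Cxcl1, Cxcl9, Cxcl11, Cxcl12 and Cxcl13 had 0 counts in all libraries of the second experiment. Cxcl1, another CXCR2 ligand of the chromosome 5 cluster, was thus not detectable there at this depth.

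Within 100 kb of the 4 chemokine loci, 7 other chemokine genes were tested with SETBP1-D868N, and 6 were called lower and none higher (0 also at an unadjusted p under 0.05, with DESeq2 and with limma-voom in the list of other chemokines that holds them). With PF-9363, 4 were tested, and 3 rose and 1 fell. Beside Ccl2 and Ccl7 on chromosome 11, Ccl12 (-0.73) and Ccl8 (-1.09) fell with SETBP1-D868N, while Ccl2 and Ccl7 did not pass the test. With PF-9363 all of these 4 rose, by 2.45 to 3.89 on the log2 scale. On chromosome 5, Pf4 (-0.62) and Ppbp (-0.76) fell with SETBP1-D868N where Cxcl3 rose by 0.45. With PF-9363 Ppbp fell by 0.82 and Cxcl2 rose by 2.72. Of the neighbours that are not chemokines, 12 were tested in the first experiment (4 higher, 6 lower) and 11 in the second (5 higher, 3 lower). Over all genes tested, 47.2% and 76.0% were called in either direction. Wfdc17, next to Ccl4, moved by -0.55 and 2.69, and Mthfd2l, next to Cxcl2, by 0.48 and -1.49.

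The NF-kappaB list held 23 subunits and regulators, all tested in both experiments. With SETBP1-D868N, 0 rose and 12 fell (median -0.11). Traf1, an adaptor of TNF receptors, fell by 0.92 and the subunit Relb by 0.74 on the log2 scale. At an unadjusted p under 0.05 edgeR gave 1 higher, DESeq2 gave 0 and limma-voom 1, and with library size alone as the scaling 4 were called higher. With PF-9363, 19 rose and 2 fell (median 1.29). Relb rose from 4.68 ± 1.08 to 49.5 ± 5.88 CPM (SD, n = 4 each; log2 fold change 3.40) and the nuclear regulator Nfkbiz rose by 2.74. The feedback inhibitors Tnfaip3 (2.205) and Nfkbia (1.73) rose with them, while Traf6 and Irak1, which relay signals of Toll-like and IL1 receptors, fell by 0.83 and 0.22.

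Among 22 inflammatory response genes, 1 rose and 18 fell of 21 tested with SETBP1-D868N (median -0.43). Lif, a cytokine of the IL6 family, fell by 1.44 and the costimulatory receptor Cd40 by 0.79, and Sod2, a mitochondrial superoxide dismutase, rose by 0.11 on the log2 scale. With PF-9363, 18 of 20 tested rose (median 2.18), and 0 fell with edgeR (also at an unadjusted p under 0.05), DESeq2 or limma-voom. Acod1, which makes itaconate in activated macrophages, went from 1.245 ± 0.334 to 58.6 ± 7.11 CPM (SD, n = 4 each; log2 fold change 5.55), and Il1a (3.84), Tnf (3.02) and Il1b (2.33) rose. The list of 15 IL4 and GM-CSF response genes was read because both signals are known to induce Ccl17 and Ccl22. All 15 fell with SETBP1-D868N (median -0.315), led by Arg1 (-1.46), an arginine-degrading enzyme of alternatively activated macrophages, and Retnla (-1.455). With PF-9363, 13 rose and 2 fell (median 0.81). The mannose receptor Mrc1 (3.17) and the shared receptor chain Csf2rb (1.76) rose, Retnla fell by 1.08, and Mgl2 fell by 0.13 at an edgeR adjusted p = 0.0496. The number lower was 2 in 5 of 16 alternatives and 1 in the others. The medians over all genes tested were 0.0043 with SETBP1-D868N and -0.038 with PF-9363.

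**Figure D5:**
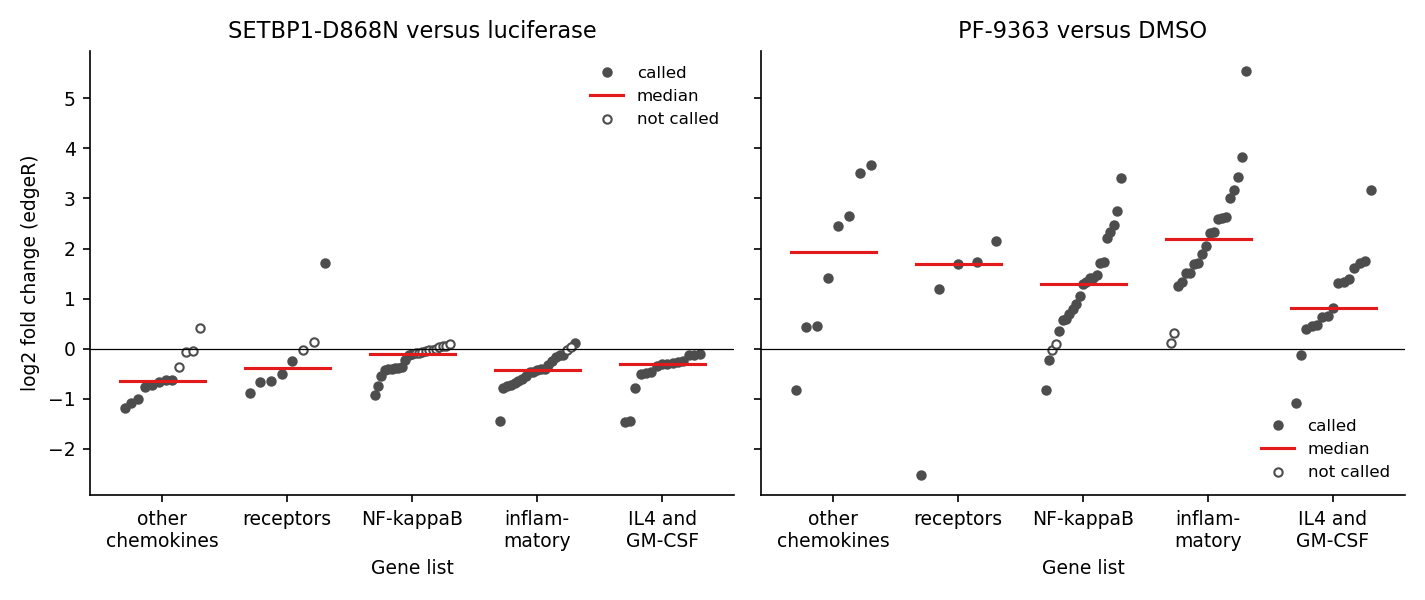
Log2 fold change from edgeR of each tested gene in 5 lists, sorted within a list, for SETBP1-D868N versus luciferase (left) and PF-9363 versus DMSO (right). Filled points were called, open points were not, and the red line is the list's median. The medians lie between -0.65 and -0.11 on the left and between 0.81 and 2.18 on the right.

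Markers of the cell types that make these chemokines moved in the same comparisons, and their part in the results was not tested. Over all genes tested, 24.5% were called higher and 22.7% lower with SETBP1-D868N, and 36.6% and 39.4% with PF-9363. All 12 macrophage and monocyte markers fell with SETBP1-D868N (median -0.61), with a sum of 1172 to 1208 CPM in luciferase and 859.8 to 913.9 CPM in SETBP1-D868N libraries. With PF-9363, 11 rose and 1, Ly6c2, fell (median 2.75), and the sum went from 1412 to 1529 CPM with DMSO to 1896 to 2051 CPM. Ly6c2 gave most of the DMSO sum and fell from 1206 to 307.8 CPM (log2 fold change -1.97). The sum therefore hides part of the rise of the other 11. Csf1r, the receptor of the macrophage growth factor, went from 62.15 to 424 CPM. Of 12 dendritic cell markers, 9 of 11 tested fell with SETBP1-D868N (median -0.91), the sum going from 1795 to 1898 CPM to 909 to 1073 CPM. With PF-9363, 4 rose and 1 fell of 7 tested, and the sum went from 186.5 to 215.6 CPM to 838.8 to 1052 CPM, of which Cd74 gave 114 and 741 CPM on average. Itgax (2.94), Ccr7 (2.25) and Clec10a (0.38) also rose, and Flt3 fell by 1.86 on the log2 scale. H2-Ab1 (38.2 and 39.5 CPM) and Ciita (5.14 and 5.20 CPM) were not called. The list holds genes of antigen-presenting cells, in which Ccl17 and Ccl22 are known to be made.

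Mast cell and basophil markers split 6 higher and 6 lower with SETBP1-D868N (sums 7341 to 7593 and 8029 to 8227 CPM). Cpa3, Cma1, Tpsb2 (log2 fold change -1.86), Mcpt4, Fcer1a and Kit fell. Mcpt8, Ms4a2, Gata2, Hdc, Srgn and Prss34 rose, the last from 855 to 1714 CPM. With PF-9363, 10 of 12 rose and 1 fell (median 1.82, sums 3161 to 3554 and 5952 to 7130 CPM), and Cpa3, a mast cell protease, went from 420.0 to 2680 CPM. Srgn fell from 1874 to 1022 CPM, and Mcpt8 was not called. Neutrophil markers gave 3 higher and 9 lower of 12 with SETBP1-D868N. With PF-9363 they gave 4 higher and 4 lower of 12, with opposite large changes within the list. These counts are near the shares over all genes tested with PF-9363, 36.6% higher and 39.4% lower. Among primary granule genes, Elane went from 1453 to 1.75 CPM (log2 fold change -9.66), Mpo from 2320.0 to 6.35 CPM (-8.49) and Prtn3 from 1054 to 7.31 CPM (-7.14), while Lcn2, of the secondary granules, rose by 2.51 and S100a8 had 3598 and 3414 CPM. Of the eosinophil markers, 1 rose and 4 fell with SETBP1-D868N, and 1 rose and 7 fell with PF-9363. Stem and progenitor markers gave 5 higher and 5 lower, then 6 higher and 1 lower. T and NK cell markers summed to 59.85 to 87.5 CPM in the first experiment (2 higher, 1 lower) and to 3.36 to 49.9 CPM in the second (1 lower), where Cd3e, Cd3g, Cd8a and Klrb1c had 0 counts. Most of that sum was Nkg7, at 58.1 CPM with luciferase, 80.25 with SETBP1-D868N and 41.6 with DMSO. With PF-9363 Nkg7 averaged 1.70 CPM, and it was the gene called lower there. B cell markers summed to 5.21 to 6.43 CPM (1 higher, 1 lower) and 1.71 to 15.97 CPM (2 lower), with Ms4a1 and Ebf1 among those at 0 counts in the second experiment. Of the erythroid markers 3 of 6 tested rose with SETBP1-D868N and 1 of 2 with PF-9363, and of the stromal and endothelial markers 3 of 6 rose with SETBP1-D868N and, of 4 with PF-9363, 1 rose and 2 fell.

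As a description of likeness, log2 CPM was centred within each experiment and correlated over the 14 libraries. The step between DMSO and PF-9363 dominates the values of the 9 genes called there. It does not dominate those of Cxcl3, whose closest gene below, St3gal3, had a log2 fold change of 0.11 with PF-9363. Among the 10 genes, Ccl2 and Ccl7 were the most alike pair (r = 0.998), while r between Cxcl3 and the others ranged from 0.356 to 0.625. Of 11141 other genes, the 2 most like Ccl2 were Fth1 (0.998), the ferritin heavy chain, and Lipa (0.997), the lysosomal acid lipase. Those most like Ccl7 were Sgk1 (0.997) and Clec4n (0.996), the latter a C-type lectin of macrophages. Ccl3 was closest to Gata1 (0.997) and Ttyh2 (0.996), Ccl4 to Pgf (0.992) and Saraf (0.990). The first of these is a transcription factor of erythroid and mast cells. Ccl6 was closest to Atp6ap1 (0.999) and Klf4 (0.998), and Ccl9 to Srxn1 (0.997). Klf4 encodes a transcription factor of monocyte differentiation. Ccl17 was closest to Cd72 (0.985) and Atox1 (0.980), Ccl22 to Cyfip1 (0.996) and Jak2 (0.994), and Cxcl2 to Ube2d2a (0.980) and Ly9 (0.978). Cxcl3 had the weakest neighbours, St3gal3 (0.887) and Rcn1 (0.886).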

How the data were processed

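Messenger RNA was sequenced in 14 libraries of 2 experiments on mouse Lin- marrow cells. Per the labels, the values deposited by the authors are raw counts per symbol in 1 table per experiment, and they are whole numbers. Per the submitters' processing notes, STAR, DESeq2, GRCm38 and mm10 were named, without versions or roles. The counting program, annotation and strand handling are not given in the sources used here. Depth was 60147266 to 68730322 counts per library (6 libraries) and 7083731 to 10359093 (8 libraries), and 0 columns were left unmapped.

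From the counts, low genes were removed with edgeR 4.0.16 (filterByExpr, minimum count 10, total 15; 15794 and 13456 genes left) and the rest scaled by TMM and tested per experiment with the quasi-likelihood test (robust glmQLFit, R 4.3.3), with Benjamini-Hochberg adjustment over all genes tested and a threshold of 0.05. Standard errors are the absolute log2 fold change over the square root of F. The script was tested on simulated counts with known changes. Lengths and positions came from GENCODE M21 (longest protein-coding transcript) and upstream sequences from RefSeq, GRCm38.p6. Pair ratios were compared by exact permutation over libraries. Alternatives were RLE factors, library size alone, 2 other filters, DESeq2 1.42.0, limma-voom 3.58.1, no robust estimation, the replicate number as a block, other pseudocounts (0.1 and 2 CPM) and leaving out each library.

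The genes, the 5 pathway lists, the 10 marker lists and the tests were chosen with earlier results of these data known. Of each pathway list, the rule named the 2 genes called higher and the 2 called lower with the largest absolute log2 fold change, provided that the higher group averaged 1 CPM or more. Further genes of the lists and all neighbours within 100 kb were named after their values were seen. Likeness named the 2 genes with the highest Pearson r per chemokine. A few genes that these rules name are not reported here. Replicate pairs of a group differed by more than sampling noise (chi-square per degree of freedom 2.27 to 27.6), so each library was counted as 1 replicate.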

Additional observations from a re-analysis of the deposited data

Results flagged for a closer look

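One value stood apart from its group. Cxcl3 read 4.54 CPM in DMSO replicate 4, and the other 3 DMSO libraries read 1.59 to 1.90 CPM. The gap was 0.895 of the range of the group, above Dixon's critical value for 4 samples. The 20 groups of 4 libraries of the 10 genes were examined this way, along with 10 groups of pair ratios, and chance flags about 1 in 20 groups.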

How the results depend on the processing

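Under the alternatives run, 6 or 7 of the 10 genes were called with SETBP1-D868N and 9 or 10 with PF-9363. Calls over all genes ranged from 6436 to 7902 and from 10013 to 11566. Library size alone as the scaling moved the median of all genes from -0.038 to -0.27 with PF-9363 (3775 higher and 6653 lower calls, against 4921 and 5307) and gave 4905 higher and 2997 lower calls with SETBP1-D868N, against 3869 and 3579. The 9 calls with PF-9363 remained past the threshold in every alternative. With SETBP1-D868N, the sign turned for Ccl3 with library size alone (0.035) and for Ccl7 without SETBP1-D868N replicate 3 (0.0038, over a range of -0.32 to 0.0038 when 1 library was left out), neither of them called. Ccl2 became called with no filter (-0.19, edgeR adjusted p = 3.76e-04), DESeq2 (-0.20, adjusted p = 0.0381) and the block (-0.19, edgeR adjusted p = 0.0306), and the cause was not tested.

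The replicate numbers did not pair the libraries: deviations of same-numbered libraries correlated between -0.0968 and -0.0369 in the first experiment and between -0.0402 and 0.0075 in the second. With a replicate block, 6640 and 10124 genes were called (7448 and 10228 without it), and Ccl17 with SETBP1-D868N was -0.68 (edgeR adjusted p = 0.0555) and Cxcl3 with PF-9363 0.68 (edgeR adjusted p = 0.0439). The block's exact sign-flip test of 4 pairs cannot go below 0.125, and it left the PF-9363 differences of the ratios Ccl2 to Ccl7 (-0.72), Ccl3 to Ccl4 (-0.355), Ccl6 to Ccl9 (0.68) and Cxcl2 to Cxcl3 (1.83) at an adjusted p of 0.156. With a pseudocount of 2 CPM, Ccl3 to Ccl4 was -0.24 (exact test, adjusted p = 0.0714). Leaving out 1 library gave ranges of -0.77 to -0.67 for Ccl2 to Ccl7, -0.43 to -0.28 for Ccl3 to Ccl4, 0.65 to 0.72 for Ccl6 to Ccl9 and 1.52 to 2.07 for Cxcl2 to Cxcl3. Without PF-9363 replicate 1 all 4 had an adjusted p = 0.0714 by the exact test, as had Ccl3 to Ccl4 without PF-9363 replicate 2, 3 or 4. The lowest adjusted p with 1 library left out was 0.0357 for each of the 4 (exact test). With SETBP1-D868N, leaving out 1 library gave -0.026 to 0.029 for Ccl6 to Ccl9 and -0.11 to 0.038 for Ccl2 to Ccl7, with the sign turned to 0.0064, 0.013 and 0.029 in the first pair. In the second experiment, Ccl17, Cxcl2 and Cxcl3 rest on 10 to 50 counts per DMSO library, which limits their precision.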
